A study of Mus musculus with 6 samples.

Results

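Txnip, the thioredoxin-interacting protein, was examined together with its alpha-arrestin relatives Arrdc2, Arrdc3 and Arrdc4, the thioredoxins Txn1 and Txn2, the thioredoxin reductases Txnrd1 and Txnrd2, and the transcription factors Mlx and Mlxip. The 10 genes were chosen by name from the 22487 genes of the deposited table, and each had a single row. The set was proposed because Txnip was higher after exposure in an earlier look at the same libraries, so its difference between the groups is given as a description and not as a test. Its partners entered with that result known, and their differences are treated in the same way.

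The samples were 6 poly(A) RNA-seq libraries of ovary, 3 from untreated control rats and 3 from rats exposed to PM2.5, fine airborne particles, collected in a cowshed. All were labelled wild type, the series describes adult females, and each title carries 30 days without saying what is counted. The labels give no strain, age in days, dose or route, nor whether each library is a different animal, so spread and p-values describe these libraries and may be technical. The organism field names the mouse, but all 22487 identifiers are rat Ensembl identifiers and the titles name the rat.

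Thioredoxins are small proteins that reduce disulfide bonds in other proteins, and thioredoxin reductases, which are selenoproteins, recharge them with electrons from NADPH. Txn1 and Txnrd1 work mainly in the cytosol and nucleus, whereas Txn2 and Txnrd2 work in mitochondria. Txnip binds reduced thioredoxin and blocks its active site, and it also limits glucose uptake. Like the Arrdc proteins it has an arrestin fold, and several of these proteins act as adaptors that bring NEDD4-type ubiquitin ligases to membrane cargo. Transcription of Txnip and Arrdc4 is known to respond to sugar phosphates through Mlx paired with Mlxip (MondoA) or its relative ChREBP.

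Library totals ran from 47662338 to 60749578 counts. The lowest count of any of the 10 genes in any library was 617, for Arrdc2, where counting error alone gives an SD of 4.03%. All 10 genes passed the filter of a mean of at least 0.5 FPKM (fragments scaled by transcript length and library size), as did 15303 genes in all. Ovarian markers were present in every library, with Star at 1314 to 7928 CPM (counts scaled to library size with TMM factors), Inha at 886 to 6152 CPM and the oocyte gene Gdf9 at 3.90 to 36.9 CPM. These are bulk samples, in which fewer cells of a type and less RNA per cell cannot be told apart.

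Txnip was at 119, 125 and 96.6 FPKM in controls 1 to 3 and at 437, 283 and 326 FPKM in PM2.5 libraries 1 to 3. Every PM2.5 library lay above every control, and the lowest of them was more than double the highest control. In CPM the group means were 351 ± 34.3 and 1078 ± 245 (SD, n = 3 in each group), with a fitted log2 difference of 1.62 ± 0.21 (SE), or 3.07-fold. Controls were close together, with a coefficient of variation of 9.78% in CPM against a median of 19.7% over genes averaging at least 1 FPKM. The PM2.5 libraries were less so, at 22.7% against a median of 17.3%. Among the 15303 tested genes ordered by FPKM, Txnip stood between places 385 and 502 in the controls and between places 82 and 157 in the PM2.5 libraries. The gene, ENSRNOG00000021201, lies on the plus strand of chromosome 2 from 184092991 to 184096886 in the coordinates of the deposited table, with a build not given in the sources used here, and no other gene of the table overlaps it.

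**Figure D1:**
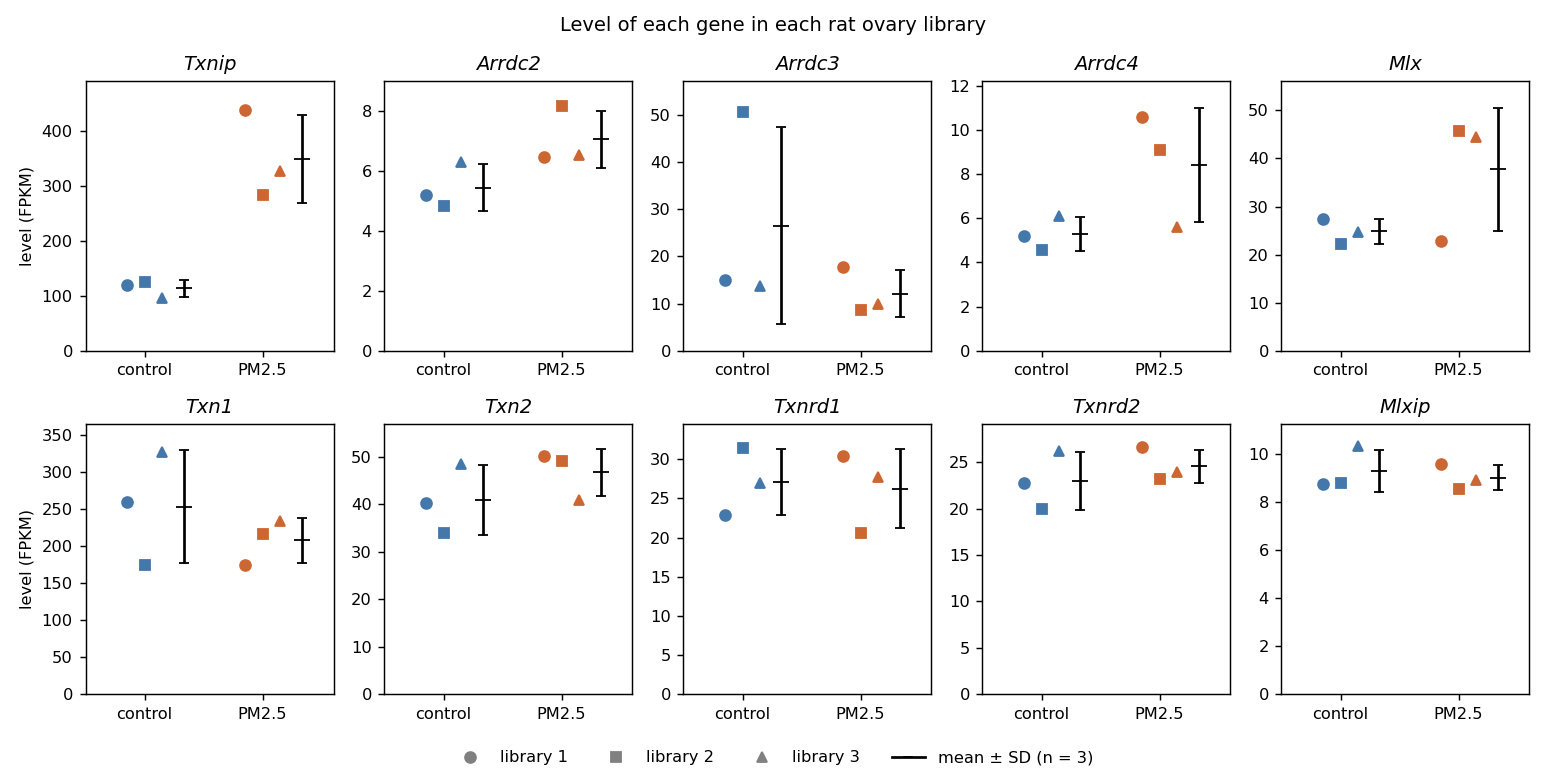
Level of each of the 10 genes in FPKM (vertical axes from 0, a different scale in each panel) by group, with 1 symbol per library and the mean ± SD of 3 libraries beside it. Txnip runs from 96.6 to 125 FPKM in controls and from 283 to 437 FPKM in PM2.5, Arrdc3 has 1 high control at 50.7 FPKM, and Mlx has 2 high PM2.5 libraries at 45.7 and 44.5 FPKM.

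Of the 10 genes 1, Txnip, passed edgeR's quasi-likelihood test adjusted over all genes, against 0.928% of the 15303 genes tested (0.190% higher and 0.738% lower). It was also the 1 called by DESeq2, against 11.5% of all genes (4.78% higher and 6.77% lower), and by limma, against 1.02% (0.183% higher and 0.836% lower). The same gene alone had groups that did not overlap in CPM, against 27.2% of all genes (12.1% higher and 15.2% lower). The edgeR call of Txnip was lost with any 1 library left out, where 0 to 7 of all genes passed, without the filter and with the replicate number as a block. Because the set was built around that gene, nothing is read from either count. Fitted differences were positive for 6 of the 10 and negative for 4, with a median of 0.13 on the log2 scale, beside a median of 0.00 over all genes tested, of which 50.4% were positive.

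**Figure D2:**
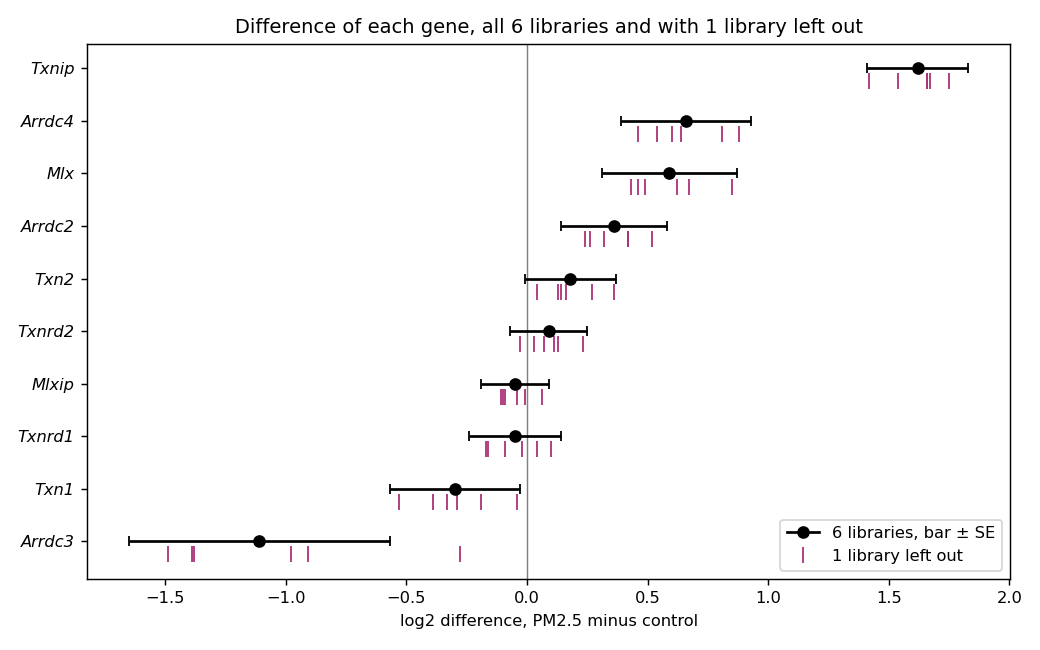
Fitted log2 difference (PM2.5 minus control) of each gene from all 6 libraries (dot, bar ± SE) and with each library left out in turn (ticks). Txnip stays between 1.42 and 1.75 in all 6 reduced fits, while Arrdc3 ranges from -1.49 to -0.28.

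The alpha-arrestin relatives did not share one pattern. Arrdc4, the closest of them to Txnip in its known response to glucose, was at 5.20, 4.56 and 6.09 FPKM in the controls and 10.6, 9.08 and 5.59 FPKM in PM2.5 libraries 1 to 3. Libraries 1 and 2 of the exposed group were above all controls, and library 3 lay within the control range. The log2 difference was 0.66 ± 0.27, and it ranged from 0.46 when PM2.5 library 1 was left out to 0.88 when library 3 was. PM2.5 library 1 was the highest of the 6 for both Txnip and Arrdc4. Arrdc4 (ENSRNOG00000010775) lies on chromosome 1 from 122369360 to 122383290, minus strand.

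Arrdc2, an adaptor of the same family, was at 5.19, 4.85 and 6.32 FPKM in the controls and 6.48, 8.17 and 6.54 FPKM in the PM2.5 libraries. On this scale the lowest PM2.5 value lay just above the highest control, whereas in CPM the groups touched, with 16.7 CPM in PM2.5 library 1 and 17.0 CPM in control 3. The log2 difference was 0.36 ± 0.22, from 0.24 to 0.52 with 1 library left out. Arrdc2 (ENSRNOG00000019009) lies on chromosome 16 from 18601897 to 18606029, plus strand.

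Arrdc3, which is known for binding beta-adrenergic receptors and promoting their ubiquitination, moved the other way and rested on 1 library. It was at 15.1, 50.7 and 13.8 FPKM in the controls and 17.8, 8.61 and 9.95 FPKM in the PM2.5 libraries. Control 2 was more than 3 times either other control, and PM2.5 library 1 was above controls 1 and 3, so the groups overlapped. The log2 difference was -1.11 ± 0.54 with all libraries and -0.28 ± 0.33 without control 2. Arrdc3 (ENSRNOG00000045649) lies on chromosome 2, as Txnip does, from 11137460 to 11149978, plus strand. Its coefficient of variation among controls, 75.4% in CPM, was above that of 95.7% of the genes averaging at least 1 FPKM.

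Control 2 was also the highest library for immediate early genes, a class of fast-induced transcription factors. Fos was at 116, 286 and 109.7 CPM in controls 1 to 3 and between 21.7 and 26.8 CPM in the PM2.5 libraries. Egr1 was at 91.1, 1306 and 52.6 CPM in the controls and Nr4a1 at 142, 1488 and 307 CPM. The summed level of 6 such genes was 577 to 3852 CPM in controls, the highest in control 2, and 421 to 802 CPM in PM2.5. All 6 had negative differences, with a median of -2.47 on the log2 scale. Lower in PM2.5 were 1 by edgeR's quasi-likelihood test and 3 by DESeq2, against 0.738% and 6.77% of all genes. Groups did not overlap in 3, all lower, against 15.2% of all genes. These genes were picked after their values were seen, and their part in the Arrdc3 value was not tested.

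As a share of the summed FPKM of Txnip, Arrdc2, Arrdc3 and Arrdc4, Txnip made up 67.5 to 82.4% in controls and 91.6 to 93.7% in PM2.5. Arrdc3 made up 10.4 to 27.4% and 2.79 to 3.78%. The other three together summed to 25.5, 60.1 and 26.2 FPKM in the controls and 34.9, 25.9 and 22.1 FPKM in the PM2.5 libraries, with overlapping groups. The shift in the Txnip share therefore follows the level of Txnip, which the choice of genes used, and is no separate finding. Arrdc1, an arrestin outside the set, is not in these sums. It was at 29.9, 22.4 and 34.6 FPKM in the controls and 29.7, 32.4 and 29.7 FPKM in the PM2.5 libraries. The ratio of Arrdc3 to Arrdc4, which leaves Txnip out, was 2.90, 11.1 and 2.27 in the controls. In PM2.5 libraries 1 to 3 it was 1.68, 0.948 and 1.78, so the groups were apart, and this ratio was not tested.

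The thioredoxins themselves showed overlapping groups. Txn1, the main cytosolic thioredoxin, was at 259.9, 174 and 327 FPKM in the controls and 174, 216 and 234 FPKM in the PM2.5 libraries. Its log2 difference was -0.30 ± 0.27, from -0.53 without control 2 to -0.04 without control 3, so single controls set its size. Txn2, the mitochondrial thioredoxin, was at 40.3, 33.9 and 48.5 FPKM in the controls and 50.2, 49.1 and 41.0 FPKM in the PM2.5 libraries, with a log2 difference of 0.18 ± 0.19. Control 2 had the lowest control value for both thioredoxins, and control 3 the highest. Txn1 (ENSRNOG00000012081) lies on chromosome 5 from 72711933 to 72724629 and Txn2 (ENSRNOG00000005614) on chromosome 7 from 109496761 to 109510359, both on the minus strand.

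The reductases had the smallest fitted differences of the enzymes in the set. Txnrd1, which recharges cytosolic thioredoxin and is a known NRF2 target, was at 22.9, 31.4 and 27.0 FPKM in the controls and 30.4, 20.6 and 27.7 FPKM in the PM2.5 libraries. Its log2 difference was -0.05 ± 0.19, and the sign turned without control 2 (0.04) and without PM2.5 library 2 (0.10). Txnrd2, its mitochondrial counterpart, was at 22.7, 20.0 and 26.2 FPKM and at 26.6, 23.2 and 23.9 FPKM, with a log2 difference of 0.09 ± 0.16 that was -0.03 without control 2. The groups overlapped for both reductases, which does not show that they were alike. Txnrd1 (ENSRNOG00000009088) lies on chromosome 7 from 20830045 to 20907863 and Txnrd2 (ENSRNOG00000001890) on chromosome 11 from 82519999 to 82568156, both on the minus strand.

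Levels per length, which can be set side by side between genes, changed order between the groups. In controls the order was Txn1 (254 ± 76.9 FPKM), Txnip (113 ± 15.0 FPKM) and Txn2 (40.9 ± 7.35 FPKM), and each of these steps was larger than the spread of the 3 libraries. Txnrd1, Arrdc3, Mlx and Txnrd2 followed between 23.0 and 27.1 FPKM and could not be separated from their neighbours in that order. Mlxip at 9.27 FPKM stood apart, and Arrdc2 and Arrdc4, at 5.45 and 5.28 FPKM, were not separated. In PM2.5 Txnip came first at 349 ± 79.5 FPKM, above Txn1 at 208 ± 30.7 FPKM, with Txn2 at 46.8 ± 5.06 FPKM. From Txn2 down, the one step larger than the spread was that from Txnrd2 (24.6 ± 1.79 FPKM) to Arrdc3 (12.1 ± 4.98 FPKM).

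In the annotation of the deposited table the members shared few specific terms. Txnrd1 and Txnrd2 were 2 of the 4 genes under thioredoxin-disulfide reductase activity, and both stood with Txn1 among 21 genes of cell redox homeostasis. Txnip shared response to oxidative stress, a term of 77 genes, with both reductases, and Arrdc2, Arrdc3 and Arrdc4 shared only the broad term plasma membrane, with 2051 genes.

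Within each library the ratio of Txnip to Txn1 in FPKM was 0.458, 0.719 and 0.295 in the controls and 2.51, 1.31 and 1.39 in the PM2.5 libraries. Txn1 transcripts outnumbered those of its inhibitor per unit length in every control, and the inverse held in every PM2.5 library. Adding Txn2 to the denominator gave 0.257 to 0.602 in controls and 1.07 to 1.95 in PM2.5. These ratios carry the Txnip difference and are given as levels without a test. The ratios among thioredoxins and reductases overlapped between the groups, with Txn1 to Txn2 at 5.13 to 6.74 in controls and 3.47 to 5.72 in PM2.5, and Txn1 to Txnrd1 at 5.52 to 12.1 and 5.74 to 10.5. Txn2 to Txnrd2, the mitochondrial pair, kept to a narrow range, 1.69 to 1.85 in controls and 1.71 to 2.12 in PM2.5.

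**Figure D3:**
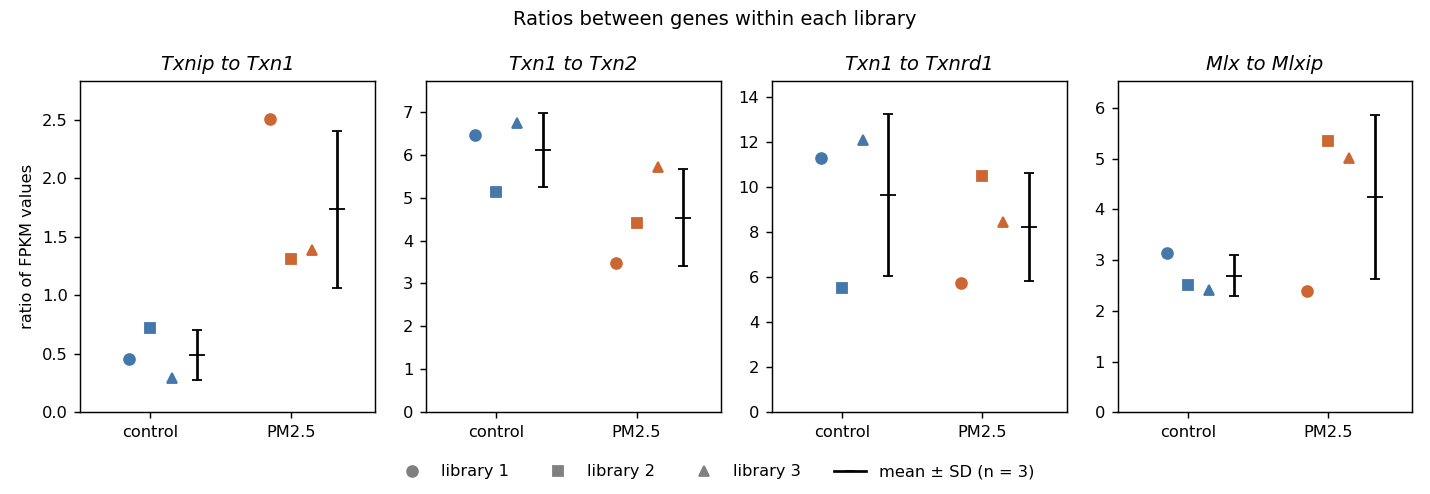
Ratios of FPKM values between named genes within each library (vertical axes from 0), with 1 symbol per library and the mean ± SD of 3 libraries. Txnip to Txn1 lies below 1 in the 3 controls and above 1 in the 3 PM2.5 libraries, and the other 3 ratios drawn overlap between groups.

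Of the sugar-sensing transcription factors, Mlx split the exposed group. It was at 27.5, 22.2 and 24.8 FPKM in the controls and 22.9, 45.7 and 44.5 FPKM in PM2.5 libraries 1 to 3. Libraries 2 and 3 were well above all controls, and library 1 lay within them, although it had the highest Txnip of all 6. The log2 difference was 0.59 ± 0.28, and it was 0.85 without PM2.5 library 1. Mlx (ENSRNOG00000019983) lies on chromosome 10 from 86019588 to 86032350, plus strand, and overlaps 2 genes on the opposite strand. Psmc3ip lies inside it and was at 8.66 to 17.1 CPM, and Retreg3, which shares 3577 bases, was at 65.4, 42.1 and 44.2 CPM in PM2.5 libraries 1 to 3, lowest in those where Mlx was high. The strand setting of the counting was not given in the sources used here, and the part of reads shared between these genes was not tested.

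Mlxip, which encodes the glucose-responsive partner MondoA, was at 8.75, 8.80 and 10.3 FPKM in the controls and 9.58, 8.55 and 8.89 FPKM in the PM2.5 libraries. Its log2 difference was -0.05 ± 0.14, with a sign that turned without control 3 (0.06). Mlxip (ENSRNOG00000001255) lies on chromosome 12 from 33128520 to 33192374, minus strand. The ratio of Mlx to Mlxip was 2.42 to 3.15 in controls and 2.39, 5.35 and 5.01 in PM2.5 libraries 1 to 3, following Mlx. Mlxipl, which encodes the relative ChREBP, had no row under that name in the deposited table, so its level is not known here.

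Some erythroid markers were higher in the same libraries as Txnip. Of 10 markers measured, 6 were tested, and 3 rose, Hba-a1, Hbb and Alas2, for which edgeR's quasi-likelihood test gave an adjusted p of 0.0434, 0.0434 and 0.0463, against 0.190% of all genes called higher. All 3 calls were lost with any 1 library left out (adjusted p 0.0706 to 0.236), without the filter (0.0505 to 0.0565) and with the replicate number as a block (0.103 to 0.119). The list summed to 786 to 1045 CPM in controls and 2739 to 4272 CPM in PM2.5, mostly through Hba-a1 and Hbb. The other 3 tested markers did not pass and their groups overlapped. Hba-a3, another alpha globin gene, was at 127 to 332 CPM in controls and 141 to 235 CPM in PM2.5. It lies inside Hba-a1 on the same strand, and the part of reads shared between them was not tested. The globin chaperone Ahsp was at a log2 difference of 0.27 ± 0.45, and the erythroid factor Klf1 was at 0.577 to 1.41 CPM in PM2.5 and 1.23 to 3.19 CPM in controls. PM2.5 library 1 had the highest Txnip and the lowest erythroid sum of the exposed group. Of the 9 other marker lists, the summed level of adipocyte markers was also apart, 19.7 to 32.4 CPM in controls and 42.9 to 90.3 CPM in PM2.5, and that of T and NK cell markers was 23.3 to 51.0 and 7.36 to 10 CPM. The latter rested on 1 gene, Gzmb, a granzyme of cytotoxic cells, at 12.0, 20.4 and 43.0 CPM in the controls and 0.858, 2.42 and 0.967 CPM in PM2.5. Gzmb fell, with an edgeR quasi-likelihood adjusted p of 0.0486 that was 0.0717 to 0.230 with any 1 library left out, and without it the sums overlapped, with 7.92 to 11.3 CPM in controls and 6.50 to 8.04 CPM in PM2.5. Smooth muscle markers had overlapping sums, 477 to 1007 CPM in controls and 758 to 3796 CPM in PM2.5, with positive differences for 6 of 6 and a median of 1.46. Higher were 3 at an unadjusted p below 0.05, 2 by DESeq2 and 0 by edgeR, against 9.17%, 4.78% and 0.190% of all genes. The part of these cells in the Txnip level was not tested.

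**Figure D4:**
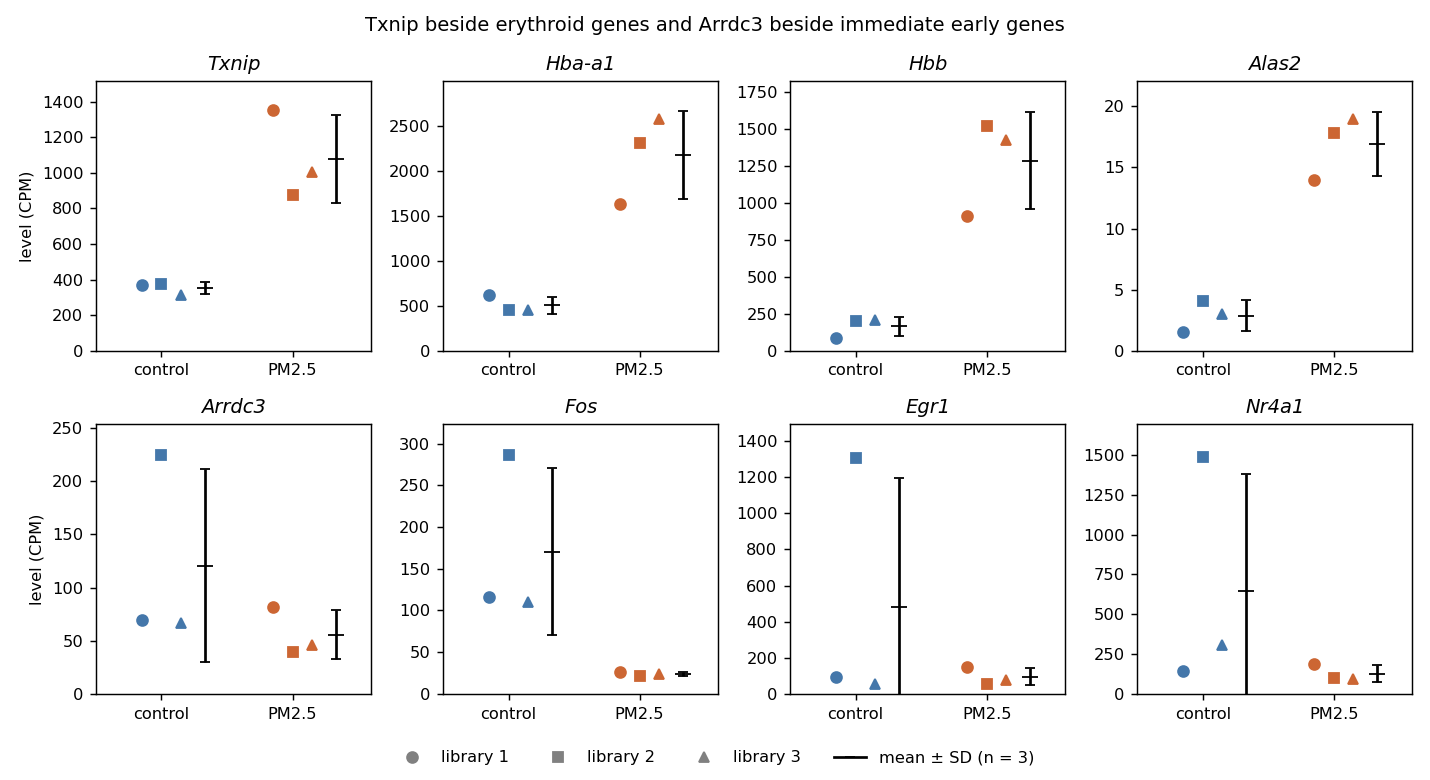
Level in CPM (vertical axes from 0) of Txnip with 3 erythroid genes (top row) and of Arrdc3 with 3 immediate early genes (bottom row), 1 symbol per library, with mean ± SD of 3 libraries and bars that would pass below 0 ending at 0. PM2.5 library 1 is the highest for Txnip and the lowest of its group for Hba-a1, and control 2 is the highest for all 4 genes of the bottom row.

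Around the 10 genes, 9 lists of 119 pathway genes gave 108 that were tested, and 1, lower in PM2.5, changed by edgeR's quasi-likelihood test (Benjamini-Hochberg, over all genes), against 0.928% of all genes. At an unadjusted p below 0.05 there were 18, 8 higher and 10 lower, against 20.9% of all genes (9.17% higher and 11.7% lower), and with DESeq2 there were 13, 6 higher and 7 lower, against 11.5% of all genes. Groups did not overlap in 13 that were higher (12.0%, against 12.1% of all genes) and 11 that were lower (10.2%, against 15.2%). The median log2 difference was 0.06, beside 0.00 over all genes tested.

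The gene that changed was Mxd1, a MAX partner that opposes MYC, in the list of the MYC, MAX and MLX network to which Mlx and Mlxip belong. It was at 35.1, 41.0 and 31.9 CPM in the controls and 16.2, 13.1 and 17.2 CPM after exposure. It fell by 1.22 ± 0.19 on the log2 scale, and edgeR's quasi-likelihood test gave an adjusted p of 0.0463, which was 0.0753 to 0.245 with any 1 library left out and 0.155 with the replicate number as a block. Of the 10 tested genes of that network 3 had positive and 7 negative differences, with a median of -0.13.

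Of the targets that Mlx complexes are known to drive in sugar-fed tissues 18 were tested, and 8 had positive and 10 negative differences, with a median of -0.11. Of these 0 passed with edgeR's quasi-likelihood test, against 0.928% of all genes. At an unadjusted p below 0.05 there were 4, 1 higher and 3 lower, against 20.9% of all genes (9.17% higher and 11.7% lower). DESeq2 called 4, 1 higher and 3 lower, against 11.5% of all genes (4.78% higher and 6.77% lower). Those nearest to passing were Scd, the stearoyl-CoA desaturase, at -2.35 ± 0.49 (edgeR's quasi-likelihood adjusted p = 0.0779), Fasn, the fatty acid synthase, at -1.05 ± 0.26 (adjusted p = 0.107) and Tkt, the transketolase of the pentose phosphate pathway, at 0.58 ± 0.14 (adjusted p = 0.108). Scd was at 115, 151 and 413 CPM in the controls and 43.2, 50.3 and 39.5 CPM in PM2.5, and Tkt at 253, 231 and 214 CPM and 369.7, 354 and 322 CPM. The groups were apart for both, in opposite directions. Over the list they were apart in 2 genes that were higher and 4 that were lower, against 12.1% and 15.2% of all genes. Without control 3 the log2 difference was -1.58 for Scd and -0.71 for Fasn.

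**Figure D5:**
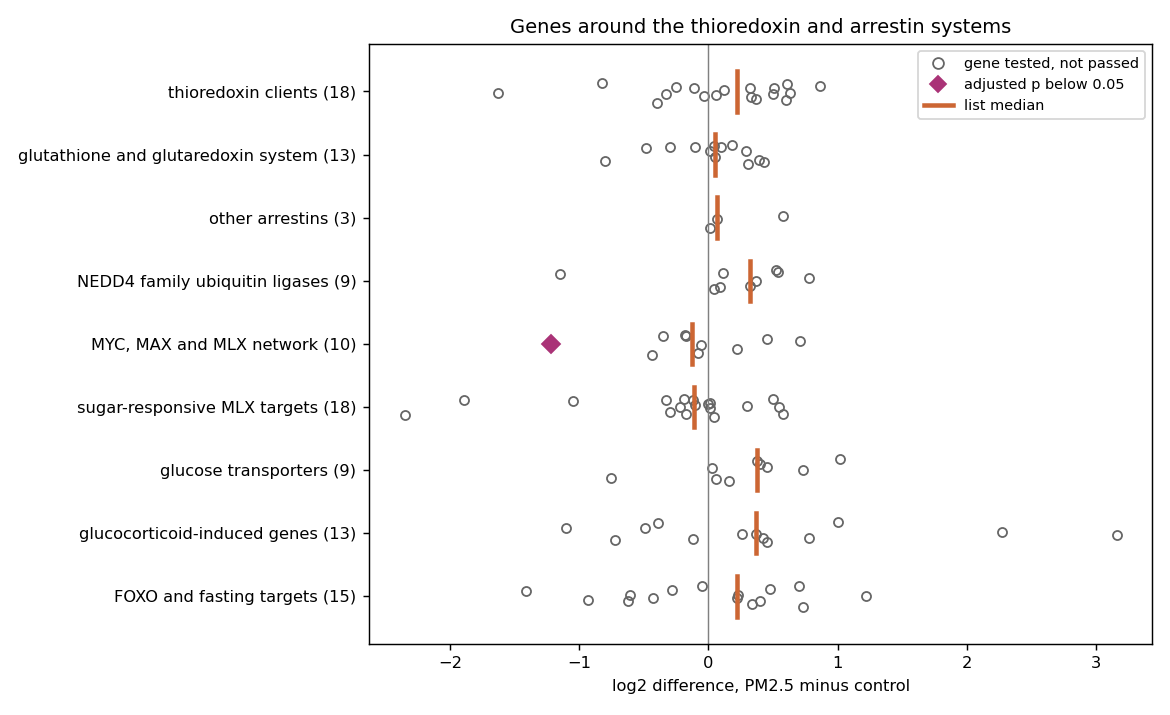
Fitted log2 difference (PM2.5 minus control) of each tested gene in 9 pathway lists, with the number tested in brackets and the list median as a bar. The one gene that passed, Mxd1, is the filled symbol at -1.22, and Zbtb16 lies farthest to the right at 3.16.

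The list of proteins that thioredoxin reduces or binds held peroxiredoxins, methionine sulfoxide reductases and ribonucleotide reductase. It also held relatives that need not be clients, such as the reductase Txnrd3, sulfiredoxin (Srxn1) and the thioredoxin-like Txnl1 and Nxn. This whole list had 11 positive and 7 negative differences among 18 tested, with a median of 0.22. None passed with edgeR's quasi-likelihood test, against 0.928% of all genes. An unadjusted p below 0.05 was reached by 4, against 20.9%, and 2 passed with DESeq2, against 11.5%. Msrb3, a methionine sulfoxide reductase, was at 37.5 ± 9.66 and 68.2 ± 5.01 CPM (SD, n = 3, edgeR adjusted p = 0.109) and Prdx4, the peroxiredoxin of the endoplasmic reticulum, at 59.1 ± 5.76 and 83.5 ± 7.10 CPM (edgeR adjusted p = 0.129). Rrm2b, a p53-induced subunit of ribonucleotide reductase, was at 17.4 ± 4.21 and 9.81 ± 2.97 CPM (edgeR adjusted p = 0.203).

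The parallel glutathione and glutaredoxin system had 13 tested genes, with a median of 0.05 and differences from -0.80 to 0.43. None passed with edgeR's quasi-likelihood test, against 0.928% of all genes. Of the 13, 1 had an unadjusted p below 0.05 (20.9% of all genes) and 1 passed with DESeq2 (11.5%). In both cases it was Gss, the glutathione synthetase, at -0.80 ± 0.20. Glrx at 0.29 ± 0.16 and Glrx2 at 0.18 ± 0.13, the cytosolic and mitochondrial glutaredoxins, were the next 2.

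Of the remaining arrestins 3 were tested, Arrdc1 at 0.07 ± 0.20, and the beta-arrestins Arrb1 at 0.58 ± 0.61 and Arrb2 at 0.01 ± 0.19. None passed with edgeR's quasi-likelihood test (0.928% of all genes), at an unadjusted p below 0.05 (20.9%) or with DESeq2 (11.5%). Without control 2 the signs of Arrdc1 (-0.11) and Arrb2 (-0.14) turned, and Arrb1 ranged from 0.04 without PM2.5 library 1 to 1.05 without control 3. The NEDD4-type ligases that alpha-arrestins recruit had 9 tested members, 8 positive and 1 negative, with a median of 0.32. None passed with edgeR's quasi-likelihood test, against 0.928% of all genes. An unadjusted p below 0.05 was reached by 3, against 20.9%, and 2 passed with DESeq2, against 11.5%. Wwp2 was at -1.15 ± 0.28, Smurf1 at 0.52 ± 0.16 and Wwp1 at 0.78 ± 0.24, with edgeR adjusted p of 0.109, 0.149 and 0.151, and Wwp2 was at -0.76 without control 3.

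The glucose transporter family, of which Txnip is known to lower some members at the cell surface, had 9 tested members. Differences were positive for 8 and negative for 1, with a median of 0.38. None passed with edgeR's quasi-likelihood test (0.928% of all genes), at an unadjusted p below 0.05 (20.9%) or with DESeq2 (11.5%). Slc2a1, the widely expressed transporter GLUT1, was at 69.8, 138 and 51.7 CPM in the controls and 53.9, 47.5 and 52.8 CPM in PM2.5, with its high value in control 2. Its log2 difference was -0.75 ± 0.35, and -0.24 without that control. Slc2a8 was at 0.40 ± 0.20 and Slc2a6 at 0.45 ± 0.24 on the log2 scale, the latter at 0.26 without control 2.

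Glucocorticoid-induced genes, a class that includes Txnip and Arrdc2 in other tissues, had 13 tested members with a median of 0.37. None passed with edgeR's quasi-likelihood test, against 0.928% of all genes. Of the 13, 1 had an unadjusted p below 0.05 (20.9% of all genes) and 1 passed with DESeq2 (11.5%), in both cases Zbtb16. This transcriptional repressor was at 0.335, 0.567 and 0.788 CPM in the controls and 7.73, 3.62 and 3.85 CPM after exposure, a log2 difference of 3.16 ± 0.53 with an edgeR adjusted p of 0.0541. As with Txnip, PM2.5 library 1 was the highest. Zbtb16 averaged 0.212 FPKM in the controls, below the filter of 0.5 FPKM, and 1.95 FPKM in PM2.5. It was tested only through the group where it was high, so its p-value is given as a description. Lcn2 at 2.27 ± 0.98 and Ddit4 at -1.10 ± 0.47 had overlapping groups, and Lcn2 was at 1.01 without PM2.5 library 2.

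FOXO factors and their fasting targets had 15 tested members, 8 positive and 7 negative, with a median of 0.22. None passed with edgeR's quasi-likelihood test, against 0.928% of all genes. An unadjusted p below 0.05 was reached by 3, against 20.9%, and 2 passed with DESeq2, against 11.5%. Foxo1 itself was at 46.2, 43.2 and 25.9 CPM in the controls and 101, 59.2 and 109 CPM in PM2.5, apart between groups, with an edgeR adjusted p of 0.112. Bcl6 was at -1.41 ± 0.49 and Gadd45a at -0.93 ± 0.36, and without control 3 they were at -0.64 and -0.39.

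The nearest profiles to that of Txnip over the 6 libraries were sought among 13074 named genes averaging at least 1 FPKM over the 6 libraries by the root mean square difference of centred log2 CPM values. The nearest 5 were Acr (0.180), Ptprk (0.221), Rragd (0.232), C5ar2 (0.234) and Lims2 (0.248), all with groups that did not overlap and log2 differences from 1.16 to 1.87. Acr, acrosin, was low, at 0.626 to 0.920 CPM in controls and 2.19 to 3.26 CPM in PM2.5. Rragd, a Rag GTPase that signals nutrient state to mTORC1, was at 1.34 to 1.80 CPM in controls and 3.42 to 4.16 CPM in PM2.5. Acr averaged 0.458 FPKM in controls and 1.70 FPKM in PM2.5, and Rragd 0.722 and 1.75 FPKM. Both reached the mean of 1 FPKM only through the exposed group. Of the set itself Arrdc4 was nearest, at 0.599 and place 842, and Arrdc3 farthest, at 1.38 and place 12104. Likeness over 6 libraries in 2 groups largely restates the group difference, so groups that do not overlap follow from the search itself.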

How the data were processed

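The deposited table holds whole-number counts per gene and library and FPKM values, both made by the authors, per the file headers. Software listed per the submitters' processing notes, with no roles, was StringTie 2.1.6, HISAT2 2.2.1, cutadapt 1.9, edgeR and DESeq2. Genome build, annotation release and strand setting were not given in the sources used here. Counts were fitted with edgeR 4.0.16 in R 4.3.3 (TMM factors, glmQLFit, glmQLFTest, two-sided, Benjamini-Hochberg at 0.05) over 15303 genes averaging at least 0.5 FPKM. The SE is the size of the log2 difference divided by the square root of F. Log2 CPM profiles used a prior count of 2. DESeq2 1.42.0, limma 3.58.1 on log2(FPKM + 1) and log2(FPKM + 0.1), other scalings and filters, leaving out each library and a replicate block were alternatives. Fits were tested on simulated counts. Within a group, any 2 libraries differed by a chi-square per degree of freedom of 135 or more, so none repeats another. No rat sequence was used here.

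The 10 genes and the pathway and marker lists were chosen with earlier results of these data known. Named are all 10 genes, per pathway list each gene that passed or otherwise the 3 with the smallest p, and the 5 nearest profiles to Txnip. Of the marker lists, genes were named to check the tissue. The other markers named, immediate early genes and genes overlapping a named gene were chosen after their values were seen. Of the table's genes 2551 had no name. Some items are not reported here.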

Additional observations from a re-analysis of the deposited data

How the results depend on the processing

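Over all genes 142 changed, with 130 to 180 under limma, other scalings and a filter at 1 FPKM, 8 without a filter, 1767 with DESeq2 (41.4% higher, against 20.4%) and 0 to 7 with a library left out, where 1898 to 3493 had an unadjusted p below 0.05. The cause of the first 2 shifts was not tested, and fewer samples entered the fits with a library left out. The one call among the 10 genes, Txnip, went to 0 without a filter, and to 0 with any library left out, with 1 to 3 of the 10 at an unadjusted p below 0.05. Among pathway genes the count of 1 was 2 with library totals alone and 2 with a mean of at least 1 FPKM (Zbtb16 added), 13 with DESeq2, 0 without a filter and 0 with any library left out (13 to 29 unadjusted). Zbtb16 reached the mean set by either filter only through the PM2.5 libraries. The labels do not say that numbers pair libraries, and deviations of same-numbered libraries correlated at -0.177, 0.162 and 0.0932. With the replicate block 1 gene changed in all, 0 of the 10 and 0 of the pathway genes (2225, 1 and 16 unadjusted in edgeR). Of 140 alternative values for the 10 genes 139 moved by less than 1 SD between libraries, and the exception was Arrdc3 without control 2 (-0.28). Of 349 values for 25 named pathway genes 3 turned sign, none past the threshold: Arrdc1 (-0.11 without control 2, the range with a library left out being -0.11 to 0.25) and Arrb2 (-0.14 without control 2 and -0.06 without PM2.5 library 3, range -0.14 to 0.13). A further 13 values passed the threshold where the main fit did not, and 8, all of Mxd1, no longer passed. Depth was ample for the 10 genes, and the 3 libraries per group set the precision.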
